A study of Homo sapiens with 16 samples.

Results

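The replication-dependent histone genes were examined as 70 protein-coding genes of GENCODE release 44, namely H1-1 to H1-6 and every symbol that begins with H2AC, H2BC, H3C or H4C. Of 74404 peak intervals counted in the study, 65 lay within 1 kb of the body of at least 1 of these genes, and these 65 are the histone gene intervals described here. The assay was CUT&Tag, in which an antibody on permeabilised nuclei guides a transposase to cut and tag nearby DNA, and it gave 16 libraries. All came from the human embryonic kidney line HEK293 with the genotype eGFP-YAP. The antibodies bound CTCF, a DNA-binding insulator protein, RAD21, a cohesin subunit, GFP, which reads the tagged co-activator YAP (called eGFP-YAP here), or H3K27ac, an acetylation mark of active promoters and enhancers. Each of the 4 targets had 2 libraries of cells given vehicle and 2 of cells given sorbitol at 200 mM for 1 h, a hyperosmotic stress. The series design asks of CTCF and RAD21 whether the occupancy of architectural proteins changes under that stress. Its text places 1 h without serum before sorbitol. The protocol describes controls collected in parallel, while column headers give vehicle the time 0 h; if the headers hold, time and treatment cannot be told apart. The labels do not say whether libraries of a group came from separate cultures or whether the line was 1 clone, so p-values measure the spread between these libraries, which may be technical. Background from a non-specific antibody was not analysed here.

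The core histones H2A, H2B, H3 and H4 form the nucleosome around which DNA is wrapped, and the linker histone H1 binds where DNA enters and leaves it. Their replication-dependent genes are clustered, have no introns in their main transcripts, are transcribed mostly in S phase at histone locus bodies organised by NPAT, and yield mRNAs that end in a stem-loop bound by SLBP in place of a poly(A) tail. Because many copies encode the same protein, a cell uses several clusters at once.

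By position the genes formed 5 clusters and a pair of isolated genes, all in hg38 coordinates. The first chr6 cluster, chr6:25723397-26285638, held 34 genes and 34 intervals. A second, chr6:27125897-27147562, held 5 genes and 5 intervals, and the third, chr6:27807479-27893891, held 16 genes and 10 intervals. On chr1 the main cluster, chr1:149782689-149887965, held 11 genes and 13 intervals, and the pair H2AC25 and H2BC26 at chr1:228434777-228463104 held 2 intervals. H4C16 on chr12 had 1 interval and H2BC12L on chr21 had none. Of the 65 intervals, 34 overlapped the canonical start site of a histone gene, called start-site intervals here, and 55 lay within 1 kb of a canonical start. The other 10 lay along long gene models, such as those of H2BC18, H2BC4 and H2BC11. Genes with no interval included the testis-type H2AC1, H2BC1 and H1-6, and also H1-1 and H1-5.

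The promoters differ in letters between families, and a few are printed because the intervals with the largest changes, and some with none, lie over them. RefSeq promoter sequences on GRCh38.p14 were matched for 64 of the 70 genes, as 68 sequences that run from 250 bases before to 50 bases after the start; H2AC12, H2BC12L, H3C11, H3C12, H4C1 and H4C3 had no entry. The lines give the 250 bases before the start, 5′ to 3′ on the gene's strand. Capitals mark 4 runs of letters, each searched on both strands, so that a match on the other strand appears as its reverse complement. They are the octamer ATTTGCAT, which the factor POU2F1 binds, the box CCAAT, which the factor NF-Y binds, the TATA box written TATAAA, and the H1 box AAACACA of linker histone promoters.
H2BC17 promoter, chr6:27893175-27893424, strand +: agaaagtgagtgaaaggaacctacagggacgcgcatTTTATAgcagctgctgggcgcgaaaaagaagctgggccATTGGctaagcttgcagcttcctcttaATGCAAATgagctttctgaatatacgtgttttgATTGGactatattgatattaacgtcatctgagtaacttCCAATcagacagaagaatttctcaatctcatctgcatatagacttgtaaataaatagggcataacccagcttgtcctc
H2BC12 promoter, chr6:27146859-27147108, strand -: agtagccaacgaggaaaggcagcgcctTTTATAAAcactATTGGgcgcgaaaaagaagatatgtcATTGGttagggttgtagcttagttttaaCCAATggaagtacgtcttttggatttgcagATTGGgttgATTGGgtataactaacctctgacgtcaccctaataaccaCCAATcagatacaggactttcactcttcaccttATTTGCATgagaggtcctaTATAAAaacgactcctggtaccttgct
H3C14 promoter, chr1:149841209-149841458, strand -: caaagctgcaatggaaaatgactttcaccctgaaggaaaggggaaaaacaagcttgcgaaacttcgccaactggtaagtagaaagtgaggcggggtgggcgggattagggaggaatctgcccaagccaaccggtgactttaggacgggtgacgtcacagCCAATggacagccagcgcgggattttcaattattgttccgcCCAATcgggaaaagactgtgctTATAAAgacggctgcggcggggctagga
H4C14 promoter, chr1:149832407-149832656, strand +: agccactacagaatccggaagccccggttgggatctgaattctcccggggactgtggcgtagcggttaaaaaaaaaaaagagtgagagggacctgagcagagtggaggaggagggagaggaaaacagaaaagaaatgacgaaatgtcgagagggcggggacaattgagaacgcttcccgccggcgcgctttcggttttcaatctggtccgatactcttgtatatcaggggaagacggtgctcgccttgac
H1-2 promoter, chr6:26056471-26056720, strand -: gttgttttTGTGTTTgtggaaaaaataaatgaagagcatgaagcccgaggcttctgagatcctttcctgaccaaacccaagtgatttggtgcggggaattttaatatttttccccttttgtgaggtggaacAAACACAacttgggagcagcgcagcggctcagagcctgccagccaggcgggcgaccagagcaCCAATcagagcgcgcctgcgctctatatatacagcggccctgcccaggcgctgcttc
The octamer was found in 68.8% of H2A, 75.0% of H2B and 7.69% of H3 promoters. It was in none of 13 H4 or 6 H1 promoters, and in 1.77% of all 35116 RefSeq promoters of the same length. CCAAT was in all 16 H2A, 20 H2B, 13 H3 and 6 H1 promoters and in 23.1% of H4 promoters, against 34.6% of all promoters. TATAAA was in 66.2% of histone promoters and in 11.5% of all, and AAACACA was in all 6 H1 promoters and in 5.64% of all. Where matches overlap, such as TATA boxes on both strands, the capitals run together. A match is a run of letters and was not tested as a binding site.

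At the other end of the gene, the processing stem-loop was searched as a 16-base histone stem-loop pattern within 150 bases after the end of the canonical coding sequence, on the gene's strand. It was found in 65 of 70 genes, and the form GGCTCTtttcAGAGCC, in which capitals mark the paired stem, was shared by 40 of them. No match was found for H2BC12L, H3C6, H2BC10, H2AC15 and H4C13.

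Total counts ranged from 1187939 to 8842656 per library. The median count of a histone gene interval was 68 to 106 in the H3K27ac libraries, 16 to 25 in those of CTCF, 8 to 34 in those of eGFP-YAP and 5 to 13 in those of RAD21, so RAD21 gives the least precise values. Mitochondrial counts took 17.8% of the CTCF libraries in vehicle and 33.3% in sorbitol, 36.4% and 45.4% for RAD21, 37.3% and 56.6% for eGFP-YAP, and 2.05% and 1.97% for H3K27ac (means, n = 2 each). Values are therefore given as counts per 1000000 (CPM) on TMM-scaled library sizes, which set the typical interval to no change. Scaling to the total count instead moved the median log2 fold change of all tested intervals to −1.04 for CTCF, −0.60 for RAD21, −1.46 for eGFP-YAP and 0.17 for H3K27ac, and changes are best read relative to that shift.

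In vehicle cells the histone gene intervals stood near other protein-coding promoters in CTCF and RAD21, above them in eGFP-YAP and below them in H3K27ac. Within each library the median log2(CPM per kb + 1) of histone gene intervals minus that of 17933 other promoter intervals was −0.10 ± 0.03 for CTCF (SD, n = 2), −0.22 ± 0.23 for RAD21, 0.35 ± 0.01 for eGFP-YAP and −0.40 ± 0.06 for H3K27ac. In sorbitol these differences were 0.75 ± 0.05, 0.40 ± 0.35, 0.69 ± 0.10 and −0.94 ± 0.08. The libraries of the treatments did not overlap in any target, but 2 against 2 libraries cannot give an exact two-sided permutation p below 0.33. Counted over start sites alone, the vehicle difference for CTCF was 0.08, of the opposite sign.

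The single intervals with the highest vehicle level differed between targets. For CTCF it was an interval inside the long H2BC18 gene model at chr1:149792418-149793708, with 59.1 CPM per kb, above 99% of other promoters. For H3K27ac and eGFP-YAP it was the H2AC19 start-site interval at chr1:149850394-149851164, with 85.2 and 26.6 CPM per kb. For RAD21 it was the H4C15 interval, with 22.6 CPM per kb, followed by its near-identical copy at H4C14 with 21.4. The order of that pair carries no information, since 99.8% of the H4C14 interval's runs of 50 bases also occur in the H4C15 interval, and how reads with several placements were counted is not given in the sources used here.

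The share of counts that fell in the 65 intervals, taken after leaving out mitochondrial and other dominant intervals, moved in opposite directions. For CTCF it was 0.0973% and 0.0928% in the vehicle libraries and 0.252% and 0.257% in the sorbitol libraries. For RAD21 it was 0.117% and 0.110% in vehicle and 0.261% and 0.229% in sorbitol, and for eGFP-YAP 0.207% and 0.212%, then 0.348% and 0.345%. For H3K27ac it was 0.180% in both vehicle libraries and 0.0948% and 0.0924% in sorbitol. Both sorbitol libraries lay above both vehicle libraries for CTCF, RAD21 and eGFP-YAP, and below both for H3K27ac. For eGFP-YAP this order depends on the total used, since dominant intervals took a mean of 57.4% of counts in vehicle and 80.9% in sorbitol. Of all counts, the intervals held 3482 of 3820932 and 2929 of 3339202 in vehicle. In sorbitol they held 1885 of 2568745 and 1375 of 2337173, both lower shares. CTCF, RAD21 and H3K27ac kept their order on that total.

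**Figure D1:**
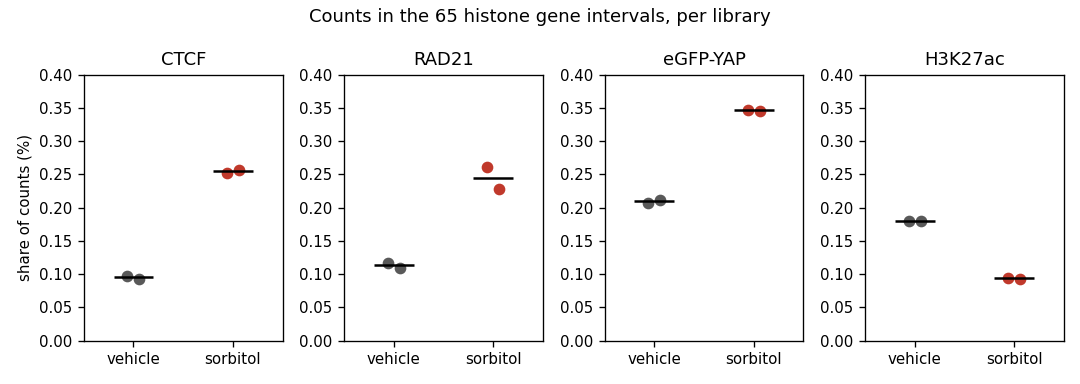
Share of counts (%) in the 65 histone gene intervals in each library, by target, with dominant intervals left out of the total; points are libraries and bars are means of 2. CTCF rises from a mean of 0.0950% to 0.255%, while H3K27ac goes from 0.180% to 0.0936%. The eGFP-YAP order reverses when dominant intervals are kept in the total.

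Interval by interval, with edgeR's quasi-likelihood test and Benjamini-Hochberg adjustment over all tested intervals of a target, CTCF rose at 30 of the 50 histone gene intervals that passed the filter on low counts and fell at 2. Over all intervals 19.5% rose and 20.7% fell in CTCF, and at other protein-coding promoters 31.3% rose. The median CTCF log2 fold change (sorbitol minus vehicle) was 1.49 at histone gene intervals, 0.53 at other promoters and −0.06 over all intervals. Under total-count scaling the CTCF counts were 17 higher and 8 lower.

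H3K27ac fell at 38 of 63 tested intervals and rose at 0, where 14.5% of all intervals fell and 8.59% rose, and 30.0% of other promoters fell. Its median log2 fold change was −0.90 at histone gene intervals, −0.15 at other promoters and 0.02 over all intervals. At an unadjusted p under 0.05 by edgeR, and in DESeq2's calls, the number with higher H3K27ac was also 0, while scaling to the total count gave 1, H4C16.

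RAD21 rose at 7 of 24 tested intervals and fell at 0, against 3.34% and 1.45% of all intervals, with a median log2 fold change of 1.31. All 7 were intervals where CTCF rose. For eGFP-YAP 10 of 51 tested intervals rose and 0 fell, against 5.34% and 1.49% of all intervals, with a median of 0.27, and CTCF rose at all 10. Joint calls of CTCF with RAD21 or eGFP-YAP were not counted over all intervals, so they are not read as particular to histone genes. No interval was lower in RAD21 or eGFP-YAP at an unadjusted p under 0.05 by edgeR, nor in DESeq2's calls. Under total-count scaling eGFP-YAP was instead higher at 4 and lower at 22 intervals, and RAD21 was higher at 3.

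**Figure D2:**
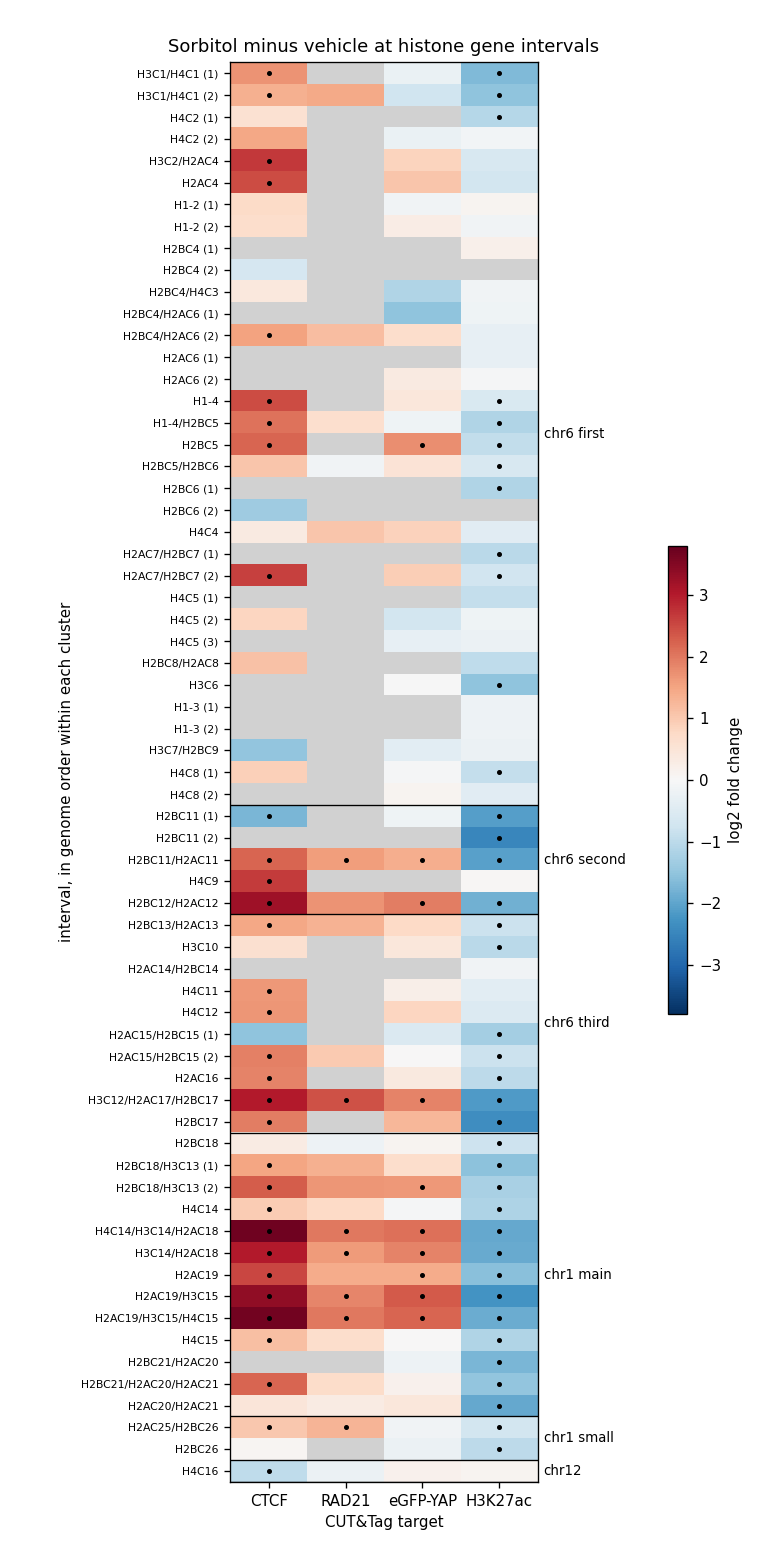
Log2 fold change (colour, sorbitol minus vehicle) at the 65 intervals in genome order, 1 column per target; dots mark an adjusted p under 0.05 and grey marks an interval not tested. The chr1 main cluster is blue in H3K27ac at all 13 intervals. The 4 rows at H3C14, H2AC18, H2AC19 and H3C15, near-identical in pairs, carry dots in every target.

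Genes of the H2A and H2B dimer, which often share 1 divergent promoter, rose in CTCF at every tested interval over a canonical start. The H2A and H2B counts overlap, since 9 intervals cover starts of both families. The H2AC18 and H2AC19 intervals also share sequence. At intervals over an H2A start, CTCF rose at 13 of 13 with a median log2 fold change of 2.23, and at intervals over an H2B start it rose at 10 of 10 with a median of 2.06; under total-count scaling these counts were 9 and 6, with none lower. H3K27ac fell at 11 of 13 H2A and 9 of 10 H2B start-site intervals, and did so under total-count scaling too. eGFP-YAP rose at 5 of 13 and 3 of 10, but under total-count scaling 1 and 0 were higher and 3 and 3 lower. RAD21 rose at 4 of 10 and 3 of 9, and at 0 of both under total-count scaling.

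The divergent promoter of H2BC12 and H2AC12, printed above for H2BC12 and covered by chr6:27145647-27147604, had CTCF values of 9.00 and 8.04 CPM in vehicle and 76.6 and 83.9 CPM in sorbitol. In H3K27ac the same interval had 57.4 and 52.6 CPM in vehicle and 15.0 and 15.8 CPM in sorbitol. Neither pair of groups overlapped, and the fold change was 9.31-fold up for CTCF (log2 3.22, SE 0.19, edgeR adjusted p = 1.0e-11) and 3.57-fold down for H3K27ac (log2 −1.84, SE 0.13, edgeR adjusted p = 5.7e-14). eGFP-YAP there was 18.5 and 17.97 CPM in vehicle and 69.1 and 72.8 CPM in sorbitol. The eGFP-YAP call was lost under total-count scaling (log2 0.52, edgeR adjusted p = 0.085). RAD21 was 16.8 and 5.31 CPM, then 36.5 and 43.2 CPM, and did not pass the test (log2 1.70, SE 0.46, edgeR adjusted p = 0.053).

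Over the start sites of H2AC17 and H2BC17, at chr6:27892815-27893879, all 4 targets changed. CTCF was 6.67 and 3.78 CPM in vehicle and 48.6 and 40.2 CPM in sorbitol. RAD21 was 10.6 and 1.77 CPM, then 36.5 and 42.0 CPM, which made its log2 fold change of 2.42 (SE 0.53, edgeR adjusted p = 0.024) the largest RAD21 rise among the histone gene intervals, with vehicle libraries far apart. H3K27ac was 43.4 and 45.3 CPM in vehicle and 9.39 and 10.7 CPM in sorbitol, a 4.42-fold fall. The sorbitol values lay on 1 side of the vehicle values in each target. Under total-count scaling the RAD21 call (log2 1.81, edgeR adjusted p = 0.082) and the eGFP-YAP call (log2 0.45, edgeR adjusted p = 0.20) were lost.

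H2BC11 and H2AC11 share the interval chr6:27132342-27133404, which changed in the same 4 ways. Its CTCF values were 8.85 and 11.1 CPM in vehicle and 45.5 and 46.1 CPM in sorbitol, its RAD21 values 17.9 and 14.2 CPM and 48.3 and 49.97 CPM. Its eGFP-YAP values were 24.2 and 21.5 CPM and 58.4 and 61.8 CPM, and its H3K27ac values 51.7 and 54.8 CPM and 11.9 and 13.8 CPM. No values of the treatments overlapped; under total-count scaling the eGFP-YAP log2 fold change turned from 1.39 to −0.05 and the RAD21 call was lost (0.98, edgeR adjusted p = 0.13).

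Farther along the H2BC11 gene model H3K27ac was lower at both remaining intervals. At chr6:27131479-27131712 H3K27ac fell 5.59-fold, from 7.58 and 11.9 CPM to 1.94 and 1.49 CPM, the largest fall of the set, and CTCF was too low to be tested. At chr6:27126920-27127496 both H3K27ac (log2 −2.09) and CTCF (log2 −1.73, SE 0.51, edgeR adjusted p = 0.0099) fell. That CTCF call rests on single libraries: the log2 fold change was −0.88 (edgeR adjusted p = 0.11) without sorbitol replicate 2 and −1.36 (edgeR adjusted p = 0.090) without vehicle replicate 2, and DESeq2 gave an adjusted p of 0.26.

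The H3 genes, which encode the histone that carries the K27 residue, were covered by 6 start-site intervals. CTCF rose at 5 of them with a median log2 fold change of 2.50 and H3K27ac fell at 5 with a median of −1.46; under total-count scaling the counts were 4 and 5. The H3C14 interval at chr1:149840143-149841503, over the promoter printed above, had CTCF values of 13.3 and 12.1 CPM in vehicle and 165 and 170 CPM in sorbitol. That was a 13.1-fold rise, the largest of CTCF at any histone gene interval (log2 3.71, SE 0.15, edgeR adjusted p = 7.4e-15).

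At that H3C14 interval RAD21 was 19.4 and 26.6 CPM in vehicle and 90.7 and 89.7 CPM in sorbitol, and eGFP-YAP was 22.9 and 24.7 CPM, then 106 and 96.5 CPM. H3K27ac was 85.6 and 102 CPM in vehicle and 24.3 and 24.98 CPM in sorbitol. Groups did not overlap in any of the 4 targets, and the folds were 4.02 up, 4.27 up and 3.81 down. The H3C15 interval at chr1:149852322-149853686, in an inverted copy of the same stretch, gave 12.8-fold for CTCF, 4.02-fold for RAD21, 4.66-fold for eGFP-YAP and 3.68-fold down for H3K27ac. Of its runs of 50 bases 98.7% occur elsewhere among the histone gene intervals, so these are not independent measurements and single-copy values are uncertain.

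Between these copies lie the H2A genes H2AC18 and H2AC19. At chr1:149841651-149843418, over the H2AC18 start, CTCF went from 20.8 and 24.8 CPM to 174 and 193 CPM and H3K27ac from 146 and 139 CPM to 37.0 and 38.5 CPM. At chr1:149851192-149852148, over H2AC19 coding sequence, eGFP-YAP went from 18.5 and 19.7 CPM to 94.1 and 96.5 CPM, its largest rise here (log2 2.32, SE 0.20, edgeR adjusted p = 1.1e-07). Of the runs of 50 bases in that H2AC19 interval 100% also occur in the H2AC18 interval, so its single-copy value is uncertain. These 4 chr1 intervals and those of H2BC11 with H2AC11 and of H2AC17 with H2BC17 were the 6 at which CTCF, RAD21 and eGFP-YAP rose and H3K27ac fell. The 4 chr1 intervals form near-identical pairs, so the 6 are not 6 independent loci. Under total-count scaling 3 of the 6 lost a call, namely RAD21 at H2AC18 (log2 1.01, edgeR adjusted p = 0.059) and RAD21 and eGFP-YAP at both chr6 intervals. Of the 24 intervals tested for RAD21, the other 18 lacked at least 1 of these calls. How often all of these calls fall together over all intervals was not counted.

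**Figure D3:**
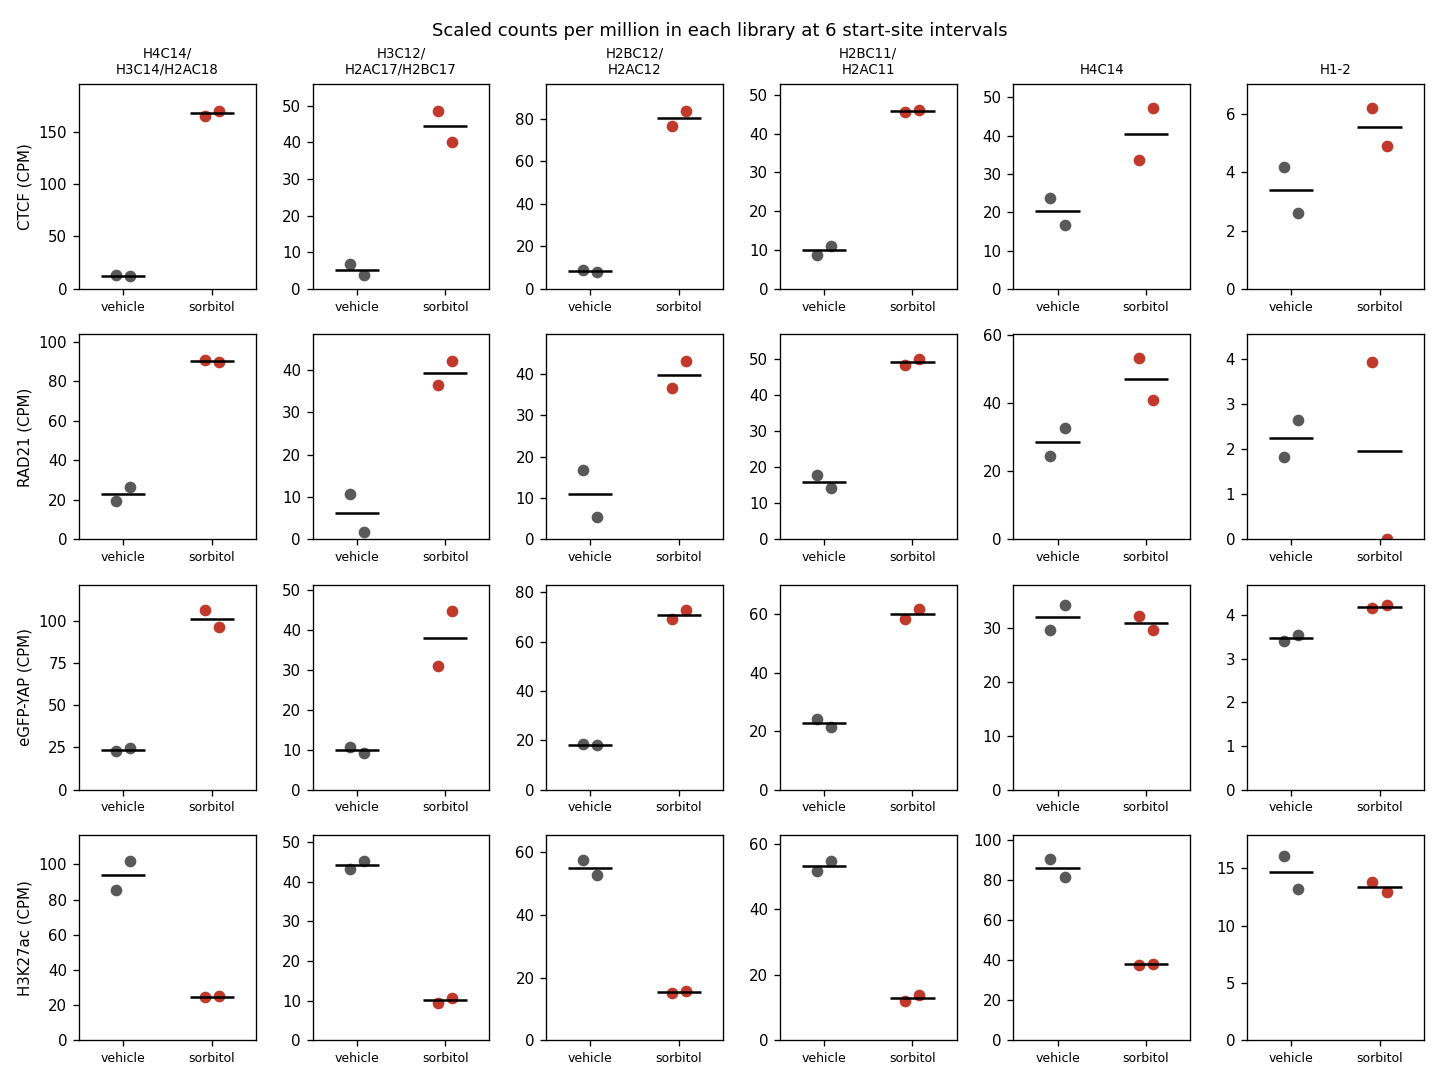
CPM on TMM-scaled library sizes in each library (points; bars are means of 2) at 6 start-site intervals, 1 row per target and 1 panel per interval. The first 4 columns rise in CTCF and eGFP-YAP and fall in H3K27ac, H4C14 rises in CTCF but has overlapping eGFP-YAP values, and H1-2 was called in no target.

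The H4 genes had smaller median changes in CTCF and H3K27ac than the H2A, H2B and H3 genes. At 11 H4 start-site intervals CTCF rose at 5 and fell at 1, with a median log2 fold change of 0.98, and under total-count scaling it rose at 0 and fell at 1 with a median of −0.01. H3K27ac fell at 4 of 11 (also 4 under total-count scaling), and eGFP-YAP rose at 0 of 11 with a median of −0.03, where total-count scaling gave 8 lower and a median of −1.46. RAD21 was called at 0 of 5. For these calls of 0, edgeR at an unadjusted p under 0.05 gave 0 for eGFP-YAP and 1 for RAD21, and DESeq2 called 0 of both.

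H4C14, whose promoter is printed above, had CTCF values of 23.6 and 16.8 CPM in vehicle and 33.6 and 47.1 CPM in sorbitol at chr1:149831842-149833177. Its eGFP-YAP values were 29.7 and 34.4 CPM in vehicle and 32.2 and 29.6 CPM in sorbitol, which overlap. H3K27ac there was 90.3 and 81.4 CPM, then 37.6 and 37.9 CPM, a 2.27-fold fall (edgeR adjusted p = 2.1e-12). The CTCF rise (log2 0.98, SE 0.23, edgeR adjusted p = 0.0017) became −0.01 under total-count scaling. All 3 H4C5 intervals and the H4C4 interval were called in no target. Of the 65 histone gene intervals, 20 were called in no target. These also included H2A, H2B and H3 genes, such as the intervals of H2BC8 with H2AC8 and of H3C7 with H2BC9. The share of all intervals called in no target was not counted.

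Linker histone genes were thinly covered. H1-4 rose in CTCF from 1.24 and 1.66 CPM to 5.69 and 10.3 CPM (log2 2.47, SE 0.60, edgeR adjusted p = 0.0025) and fell in H3K27ac from 15.8 and 12.9 CPM to 9.61 and 9.44 CPM (log2 −0.59, edgeR adjusted p = 0.040). That H3K27ac call was lost with DESeq2 (adjusted p = 0.13) and under total-count scaling (edgeR adjusted p = 0.12). A further H1-4 interval, which starts at chr6:26156953 and is shared with H2BC5, rose in CTCF (log2 2.07) and fell in H3K27ac (log2 −1.16). Both calls were kept with DESeq2 (adjusted p = 8.8e-05 and 0.00078) and under total-count scaling (edgeR adjusted p = 0.022 and 0.00073). The H1-2 start-site interval, over the promoter printed above, had H3K27ac values of 16.1 and 13.2 CPM in vehicle and 13.8 and 12.9 CPM in sorbitol, which overlap. Both intervals of H1-2 and both of H1-3 were called in no target, where CTCF counts at H1-3 were too low to be tested.

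By cluster, H3K27ac fell at all 13 intervals of the chr1 main cluster, with a median log2 fold change of −1.58, and there CTCF rose at 10 of 12, eGFP-YAP at 6 of 13 and RAD21 at 4 of 12. Without 4 near-identical copies in that cluster, H3K27ac fell at 9 of 9 and CTCF rose at 6 of 8, while eGFP-YAP rose at 3 of 9 and RAD21 at 2 of 8. The first chr6 cluster, which has the most genes, had CTCF higher at 9 of 22, H3K27ac lower at 12 of 32, eGFP-YAP higher at 1 of 23 and RAD21 at 0 of 5 (1 at an unadjusted p under 0.05 by edgeR, 0 by DESeq2). In the second chr6 cluster H3K27ac fell at 4 of 5 and CTCF rose at 3 of 4 and fell at 1, and in the third H3K27ac fell at 7 of 10 and CTCF rose at 7 of 9. Under total-count scaling CTCF was higher at 7 and lower at 1 interval of the chr1 main cluster, and at 5 and 3 of the first, 3 and 1 of the second and 2 and 1 of the third chr6 cluster. On that scale eGFP-YAP was higher at 4 and lower at 6 in the chr1 main cluster and at 0 and 11 in the first chr6 cluster. Differences between clusters were not tested.

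In the small chr1 pair, the shared promoter of H2AC25 and H2BC26 at chr1:228457104-228458809 had CTCF values of 54.3 and 45.7 CPM in vehicle and 106 and 97.1 CPM in sorbitol. RAD21 was 28.5 and 21.3 CPM there, then 72.9 and 51.1 CPM, and H3K27ac 112 and 108 CPM, then 65.4 and 70.7 CPM. Groups did not overlap in these 3 targets, whereas eGFP-YAP values did. The RAD21 call (log2 1.29, edgeR adjusted p = 0.041) was lost without sorbitol replicate 1 (1.01, edgeR adjusted p = 0.13) and without vehicle replicate 2 (1.12, edgeR adjusted p = 0.070). Under total-count scaling CTCF (log2 0.03, edgeR adjusted p = 0.91) and RAD21 (log2 0.68, edgeR adjusted p = 0.24) were not called at this promoter.

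H4C16 on chr12, the isolated gene with an interval, went the other way. CTCF at chr12:14769445-14771336 was 24.8 and 31.5 CPM in vehicle and 8.28 and 20.1 CPM in sorbitol, a fall of 1.95-fold (log2 −0.96, SE 0.30, edgeR adjusted p = 0.014). H3K27ac was 75.1 and 80.1 CPM in vehicle and 82.0 and 83.4 CPM in sorbitol, which did not overlap but did not pass the test (log2 0.09, SE 0.08, edgeR adjusted p = 0.45). The CTCF call was lost without sorbitol replicate 1 (log2 −0.47, edgeR adjusted p = 0.18) and without vehicle replicate 2 (log2 −0.80, edgeR adjusted p = 0.085). Scaling to the weakest 25% of intervals also ended it (log2 −0.70, edgeR adjusted p = 0.067).

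Calls in eGFP-YAP outside the intervals above were few. H3C13, at chr1:149812932-149813711, rose from 8.27 and 6.32 CPM to 22.6 and 23.7 CPM (log2 1.65, SE 0.32, edgeR adjusted p = 0.0023), and missed the threshold without vehicle replicate 2 (edgeR adjusted p = 0.056) and under total-count scaling (log2 0.22, edgeR adjusted p = 0.59). H2BC5, at chr6:26158243-26158518, rose from 3.73 and 2.57 CPM to 10.1 and 11.8 CPM (log2 1.77, SE 0.50, edgeR adjusted p = 0.038), and this was lost without vehicle replicate 1 (edgeR adjusted p = 0.16) or vehicle replicate 2 (edgeR adjusted p = 0.42), and under total-count scaling (log2 0.34, edgeR adjusted p = 0.56). H3K27ac at H2BC5 (log2 −0.95, edgeR adjusted p = 0.044) was likewise lost without sorbitol replicate 2 (edgeR adjusted p = 0.34) or vehicle replicate 2 (edgeR adjusted p = 0.17), with DESeq2 (adjusted p = 0.13) and under total-count scaling (edgeR adjusted p = 0.086).

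**Figure D4:**
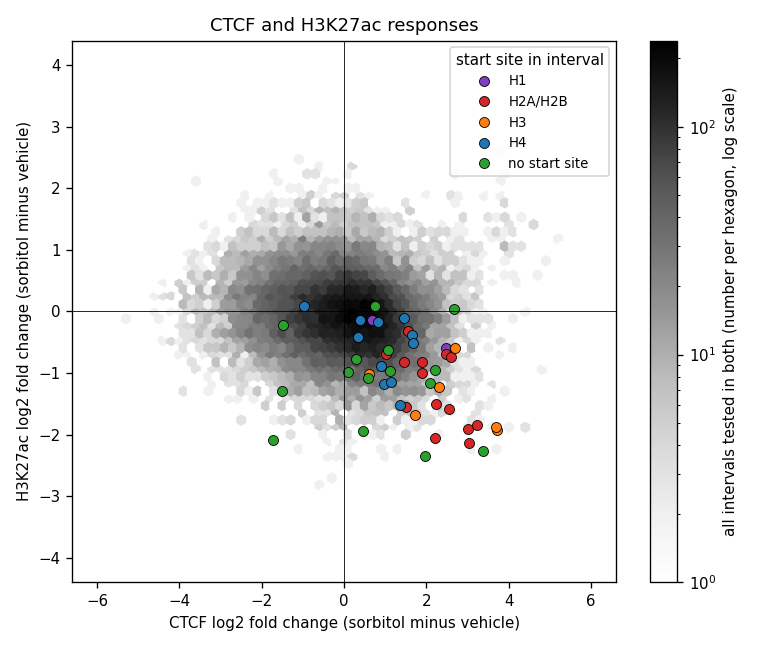
CTCF against H3K27ac log2 fold change for every interval tested in both (grey hexagons, log colour scale for the number of intervals), with histone gene intervals as points coloured by the family whose start site they overlap. Most points lie to the right of 0 and below 0, with H2A, H2B and H3 farthest out and H4C16 alone at the upper left.

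That CTCF and H3K27ac responded differently at these intervals was tested directly with an interaction term in 1 fit of their 8 libraries. The CTCF response lay above that of H3K27ac at 37 of 65 intervals and below it at 1, H4C16 (log2 difference −1.40, SE 0.27, edgeR adjusted p = 3.1e-05), against 9.3% and 12.3% of all intervals. For eGFP-YAP the response lay above that of H3K27ac at 17 of 62 intervals and below it at 0, against 2.55% and 3.72% of all intervals. No interval lay below at an unadjusted p under 0.05 by edgeR, nor in DESeq2's calls. Scaling to the total count turned the eGFP-YAP counts into 10 above and 9 below, and scaling to the weakest 25% ended the H4C16 call.

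Across intervals, CTCF and RAD21 log2 fold changes had a Pearson correlation of 0.81 over 24 histone gene intervals, where all intervals gave 0.66. CTCF and eGFP-YAP gave 0.72 over 45, with 0.37 for all intervals. RAD21 and H3K27ac gave −0.65 over 24 and eGFP-YAP and H3K27ac −0.52 over 51, with −0.13 and 0.06 for all intervals. CTCF and H3K27ac gave −0.35 over 48, or −0.27 without near-identical copies, with −0.11 for all intervals. These values describe intervals that share libraries, scaling and in part sequence, and they are not a test. CTCF rose and H3K27ac fell at 24 of the 48 intervals tested in both. The share of all intervals with this pair of calls was not counted, so the count is a description only.

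Letters of the promoter and interval sequences were not used to select the genes. Intervals over a promoter with the octamer had CTCF higher at 9 of 9 and H3K27ac lower at 7 of 9, and those without it at 15 of 22 and 14 of 23. The median log2 fold changes with and without it were 2.23 and 1.55 for CTCF, 0.95 and 0.34 for eGFP-YAP, and −1.50 and −0.81 for H3K27ac. These values were not split by gene family, and the octamer's share differed between families as given above. The published CTCF consensus, allowing 1 mismatch on either strand, was in 4 of the 65 intervals, and CTCF was called at 0 of these 4 by edgeR (2 higher at an unadjusted p under 0.05) and by DESeq2. Under scaling to the weakest 25% it was called higher at 2 of them, and under total-count scaling higher at 0 and lower at 2. The consensus was searched in histone gene intervals only, so whether 4 of 65 differs from other intervals is not known. The histone gene intervals had a median GC content of 54.5% and other promoters 63.5%.

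Other intervals inside the clusters were few, and their difference from histone gene intervals was not tested. In the first chr6 cluster the histone gene intervals had CTCF higher at 9 of 22 and H3K27ac lower at 12 of 32. In the same cluster 11 intervals lay between histone genes but not within 1 kb of one. CTCF fell at 3 of 7 of these tested and rose at 0, with a median log2 fold change of −1.48. The CTCF count was 1 lower with DESeq2, 1 lower under scaling to the weakest 25% and 6 lower under total-count scaling. H3K27ac was called at 0 of 4 by edgeR and by DESeq2 (1 higher and 1 lower at an unadjusted p under 0.05 by edgeR). Scaling turned the H3K27ac count into 1 lower with DESeq2's size factors, 2 lower with the weakest 25% and 1 higher with the total count. The other 4 clusters held no such interval.

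Genes that act on replication-dependent histone genes or their mRNAs were read from the same fits, at intervals near their start sites. For 16 genes of transcription and 3′ processing, CTCF rose at 7 and fell at 2 of 18 intervals tested and H3K27ac rose at 2 and fell at 8 of 21; under total-count scaling the counts were 1 and 5, then 4 and 5. As shares, 38.9% rose in CTCF and 38.1% fell in H3K27ac, near the 31.3% and 30.0% of other protein-coding promoters, so the counts of this list are read only as a description. SLBP, which binds the stem-loop, went in CTCF from a mean of 15.2 to 39.9 CPM and in H3K27ac from 192 to 88.1 CPM (log2 −1.12, SE 0.07, edgeR adjusted p = 2.5e-15). CCNE1, the cyclin that with CDK2 acts on NPAT, had H3K27ac at 43.1 and 18.3 CPM and CTCF at 6.84 and 23.5 CPM in vehicle and sorbitol. Under total-count scaling the CCNE1 CTCF call was lost (log2 0.79, edgeR adjusted p = 0.057) and the H3K27ac call was kept (log2 −1.08, edgeR adjusted p = 1.4e-07). HINFP, a factor for H4 promoters, rose in CTCF (log2 1.35), a call lost under total-count scaling (log2 0.37, edgeR adjusted p = 0.28). NPAT fell in CTCF (log2 −0.74, SE 0.27, edgeR adjusted p = 0.033), which DESeq2 (adjusted p = 0.083) and scaling to the weakest 25% (log2 −0.48, edgeR adjusted p = 0.17) did not call. RAD21 and eGFP-YAP were called at 0 of 14 and 0 of 18 of these intervals by edgeR and by DESeq2, where 1 and 3 had an unadjusted p under 0.05 by edgeR. Under total-count scaling eGFP-YAP was lower at 17 of 18.

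Many histone genes outside the replication-dependent set are transcribed through the cell cycle, and many yield polyadenylated mRNA. For 11 such genes CTCF rose at 6 and fell at 2 of 17 intervals, eGFP-YAP rose at 2 of 16 and H3K27ac rose at 1 and fell at 9 of 20; under total-count scaling CTCF was 2 higher and 5 lower and eGFP-YAP 0 higher and 12 lower. The shares were 35.3% higher in CTCF and 45.0% lower in H3K27ac. H2AX, which makes both a stem-loop and a polyadenylated mRNA, had mean CTCF values of 29.8 CPM in vehicle and 136 CPM in sorbitol (log2 2.21, SE 0.16, edgeR adjusted p = 1.8e-10) and mean H3K27ac values of 107 and 40.2 CPM. H3-3B, a gene of the replacement histone H3.3, had CTCF at 33.3 and 117 CPM, eGFP-YAP at 25.4 and 69.7 CPM and H3K27ac at 50.8 and 26.9 CPM at its interval on chr17:75778785-75780146. The eGFP-YAP call there was lost under total-count scaling (log2 0.02, edgeR adjusted p = 0.96). At the other H3-3B interval, chr17:75784171-75785786, eGFP-YAP was instead 42.4 CPM in vehicle and 25.1 CPM in sorbitol (log2 −0.78, edgeR adjusted p = 0.058). CTCF was 24.4 and 39.2 CPM and H3K27ac 131 and 67.6 CPM at that interval. H2AZ2 instead fell in CTCF (log2 −0.77, SE 0.18, edgeR adjusted p = 0.0021).

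Of 7 histone chaperone genes, H3K27ac fell at 7 of 10 intervals and CTCF rose at 4 and fell at 1 of 9; under total-count scaling H3K27ac fell at 4, CTCF rose at 0 and fell at 1, eGFP-YAP was higher at 0 and lower at 7 of 9, and RAD21 was called at 0 of 7. CTCF rose at a share of 44.4%, and the difference of these shares from other promoters was not tested. ASF1B, a carrier of newly made H3 and H4, had eGFP-YAP at 30.3 CPM in vehicle and 72.4 CPM in sorbitol (log2 1.26, SE 0.20, edgeR adjusted p = 0.00025), and −0.16 under total-count scaling (edgeR adjusted p = 0.60). CHAF1A, the large subunit of the assembly factor CAF-1, rose in RAD21 from 10.8 to 36.9 CPM (log2 1.88, SE 0.47, edgeR adjusted p = 0.040), a call lost under total-count scaling (log2 1.30, edgeR adjusted p = 0.10). ASF1A fell in CTCF (log2 −0.93) and in H3K27ac (log2 −0.37).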

How the data were processed

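Histone gene intervals were read from a deposited table of raw counts per peak interval, which the authors made as whole numbers not scaled between 16 libraries. Per the submitters' processing notes, the tools included Trim Galore, BWA 0.7.17, Picard, bedtools 2.31.1 and MACS2 2.2.6, on hg38. Whether peaks were called on pooled reads, and the treatment of reads with several placements, are not given in the sources used here. No sample column was left unmapped (0). Libraries were grouped by target and treatment from the labels.

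For each target, edgeR 4.0.16 in R 4.3.3 (robust quasi-likelihood fit, TMM scaling, filterByExpr with a minimum of 10 counts) was fitted to all intervals of its 4 libraries, with Benjamini-Hochberg adjustment over all tested intervals and a threshold of 0.05. Standard errors were derived from the F statistic. The method was tested on simulated data. Differences between targets were interaction terms over 8 libraries. Genes closer than 500 kb were chained into clusters. Dominant intervals were mitochondrial, on unplaced contigs, inside the YAP1 gene or above 0.1% of a library. Intervals that shared at least 85% of their runs of 50 bases with a wider histone gene interval were called near-identical copies.

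Intervals eligible to be named were, per target, the 4 largest rises and falls past the threshold with libraries that did not overlap, the 3 highest vehicle levels, those called in 3 or more targets, and all outside chr6. Not all of these are described. Those left out include an H3K27ac fall at a further H2BC17 interval and chr1 intervals of H2BC21, H2AC20, H2AC21 and H2BC26. H1-2, H1-3, H4C4 and H4C5 are named as examples of intervals with no call, and H1-4 as the called linker gene, chosen after their values were seen, as were the genes singled out from the other lists. The genes, lists and tests were chosen with earlier results of these data known. Alternatives were DESeq2 1.42.0, other scalings, count filters, GC-corrected offsets, a replicate block and leaving out each library. Replicate numbers were shared between treatments, but same-numbered libraries did not deviate together (correlations −0.0094, −0.0038, 0.0057 and −0.0069 for CTCF, RAD21, eGFP-YAP and H3K27ac), so they were not treated as pairs.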

Additional observations from a re-analysis of the deposited data

Results flagged for a closer look

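The responses of different targets to sorbitol differed at the same histone gene intervals, by edgeR's test of the interaction of target and treatment. The CTCF response lay above the H3K27ac response at 37 of 65 intervals, with called log2 differences up to 5.29, and below it at 1, H4C16. The eGFP-YAP response lay above the H3K27ac response at 17 of 62 intervals, with called log2 differences from 0.80 to 4.23. The median difference was 1.92 for CTCF and 1.03 for eGFP-YAP, where all intervals gave −0.27 and −0.21. CTCF and eGFP-YAP libraries also gained mitochondrial counts in sorbitol and H3K27ac libraries did not, and its part in these differences was not tested.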

How the results depend on the processing

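Counts below are histone gene intervals that passed the threshold, and medians are log2 fold changes minus that of all tested intervals, with main values of 1.55 for CTCF, 1.32 for RAD21, 0.31 for eGFP-YAP and −0.92 for H3K27ac. Scaling to the total count gave 17 higher and 8 lower for CTCF, 3 higher for RAD21, 4 higher and 22 lower for eGFP-YAP and 1 higher for H3K27ac. It also gave 2 intervals with the CTCF response below that of H3K27ac, and 10 above and 9 below for eGFP-YAP, and it reversed CTCF at H4C14 (−0.0066) and eGFP-YAP at H2AC19 (−0.025) and at H2BC11 with H2AC11 (−0.0459). Leaving dominant intervals out of the total gave 1 higher for H3K27ac. Scaling to the weakest 25% gave 1 lower for CTCF, 11 higher for RAD21 and 0 intervals with CTCF below H3K27ac. DESeq2 gave 1 lower for CTCF. With no count filter the medians were 1.37 for CTCF and 0.24 for eGFP-YAP. A mean of at least 50 counts, which tests fewer intervals, gave 11 higher and 1 lower with a median of 2.06 for CTCF, 4 higher for RAD21, a median of 1.44 for eGFP-YAP and 1 higher for H3K27ac. GC-corrected offsets gave 1 lower and a median of 1.69 for CTCF and a median of 1.58 for RAD21.

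Replicate numbers did not pair the libraries. A replicate block gave 30 higher and 2 lower with a median of 1.60 for CTCF, 7 higher for RAD21, 9 higher for eGFP-YAP and 38 lower for H3K27ac. With GC-corrected offsets as well, the block gave 1 lower and a median of 1.72 for CTCF and medians of 1.60 for RAD21 and 0.36 for eGFP-YAP. Leaving out 1 library at a time gave 0 to 2 lower and a median of 1.45 to 1.64 for CTCF, 0.81 to 1.53 for RAD21 and 0.19 to 0.38 for eGFP-YAP, with 0 to 2 lower, and 0 to 1 interval with the eGFP-YAP response below that of H3K27ac.

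As alternatives chosen after seeing the data, intervals within 1 kb of a canonical start gave 1 lower and a median of 1.70 for CTCF, and leaving out near-identical copies gave a median of 0.24 for eGFP-YAP. Over start sites only, the level against other promoters was 0.0754 (the opposite sign) in vehicle and 1.05 in sorbitol for CTCF, 0.81 in sorbitol for RAD21, 0.53 and 1.13 for eGFP-YAP, and −0.17 and −0.81 for H3K27ac. A pseudocount of 0.25 gave 0.80 for CTCF in sorbitol and 0.38 for eGFP-YAP in vehicle.

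Of 759 alternatives to 55 named values, 719 kept the call and its direction, 37 missed the threshold and 3 reversed, 13 and 3 of these under total-count scaling. Where a call was lost, the cause was not tested. Depth limits RAD21 most, with a median of 5 to 13 counts per interval, and 2 libraries per group limit every test. Total-count scaling cannot separate a change at all nuclear intervals from the larger mitochondrial share, so absolute gains or losses of CTCF, RAD21 and eGFP-YAP cannot be read from these counts.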
